A study of Mus musculus with 2 samples.

Results

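The genes described here encode the enzymes of glycolysis, the carriers of glucose and lactate, and the hypoxia-inducible factor (HIF) pathway with a set of its known targets. They were chosen by gene symbol from a list of 42 genes, whatever their values, and every probe set whose platform annotation names a listed gene alone was used. Of the 42 genes, 39 had such a probe set, out of 18193 genes on the array, with 84 probe sets between them. Gapdh was listed only on 3 probe sets that also name pseudogenes, and Gpi1 and Eno1 were not among the annotated probe sets, so these 3 genes were not analysed here.

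The samples were 2 preparations of mouse Flk1+Tie2+ cells, the sorted endothelial fraction of embryoid bodies (aggregates of differentiating embryonic stem cells) on day 5, each hybridised to 1 Affymetrix array. Cells of the first group had received doxycycline (dox, 250 ng/mL) from day 2, until day 4 according to the sample description. Those of the other group had received no dox. Cells of both groups came from the A2lox.Mesp1 line on a 129/Ola background and so carry the same dox-inducible Mesp1 transgene, which encodes a transcription factor of early mesoderm. The comparison asks how endothelium made after a pulse of Mesp1 differs from endothelium made without it. Dox and Mesp1 cannot be told apart, because there is no line without the transgene among the samples. Neither condition was replicated, so no test was possible, and each difference below is one between these 2 RNA samples. The only spread that could be measured is that between probe sets of the same gene, whose pooled SD was 0.38 log2 units (0.26 at a mean signal of 500 or more and 0.48 below it).

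In glycolysis glucose is split to pyruvate in the cytosol with a small yield of ATP, and lactate dehydrogenase then turns pyruvate into lactate. Endothelial cells are known to draw most of their ATP from this route. HIF is a dimer of an oxygen-regulated alpha subunit and a stable beta subunit. With oxygen present, prolyl hydroxylases mark the alpha subunit for the von Hippel-Lindau protein and the proteasome. When oxygen is low the subunit persists and activates genes of glucose uptake, glycolysis, vessel growth and, as feedback, some of its own hydroxylases.

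Signals have arbitrary units and cannot be compared between probe sets or genes. Between the arrays they were compared as deposited, which assumes a common scale. A difference is dox minus no dox of log2(signal + 16), and a fold is 2 to the power of its size. Each gene is represented by its brightest probe set, and it passes the signal filter when that probe set reaches the array's median signal (127 with dox, 112 without) on at least 1 of the arrays. Mesp1 itself had a signal of 10977 with dox and 2433 without, a log2 difference of 2.17. The genes behind the sort markers were close to level, with Kdr (Flk1) at 10732 with dox and 10139.7 without, and Tek (Tie2) at 9277 and 8799. All 10 endothelial markers passed the filter on both arrays, and their summed signal was 44239 with dox and 45691 without. The larger differences among them were those of Cldn5 (-1.40), Eng (1.26) and Esam (-0.35). Markers of other cells moved more. The summed signal of 10 smooth muscle and mesenchyme markers was 36690 with dox and 4967 without (8 of 10 at least 2-fold higher). The largest log2 differences were those of Tagln, Lum and Col3a1, and Acta2 was the brightest, at 14719 with dox and 2999 without. Tagln, Lum, Cnn1 and Col1a1 passed the filter only through the array with dox, and Myh11 stayed below it on both. The summed signal of 10 cardiomyocyte markers was 7625 with dox and 2118 without (5 of 10 at least 2-fold higher), with the largest log2 differences in Myl4, Tnnt2 and Myl7. Myl4 and Myl7 passed the filter only through the array with dox, and Myh6, Actn2, Nppa and Ryr2 stayed below it on both. The summed signal of 7 measured erythroid markers was 3632 with dox and 7827 without (3 of 7 at least 2-fold lower at any signal). The largest log2 differences were those of Hbb-bh1, Alas2 and Hba-x. Alas2 was below the filter on both arrays, at 1.67 with dox and 24.1 without, and Hba-x passed it only through the array without dox. Such sums are set mostly by the brightest probe sets. Of the 6 skeletal muscle, 6 neural and 6 pluripotency markers, 3, 4 and 5 stayed below the filter on both arrays, Pou5f1 among them. The neural summed signal was 803 with dox and 1508 without. The larger differences were those of Sox1 (-2.48, below the filter), Nes (-0.97) and Pax6 (-0.67). Another Sox1 probe set, also below the filter, went the other way (1.49). The skeletal muscle sum was 445 with dox and 544 without, with Ckm (-0.97), Myod1 (-0.82) and Myog (0.28), and the pluripotency sum 538 with dox and 423 without, with Nanog (0.80), Sox2 (0.77) and Dppa5a (0.24). Of all the markers Cnn1 stood at the table's floor of 1 without dox, and Sox1 and Tdgf1 with dox. What part these other cells have in the differences below was not tested.

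Most glycolysis and hypoxia genes differed little between the arrays, and the 2 exceptions both belong to the HIF pathway. Of the 39 measured genes 34 passed the signal filter. Egln3, a HIF prolyl hydroxylase, was 5.68-fold lower with dox, and Epas1, which encodes the alpha subunit HIF-2α, was 2.38-fold higher. The other 32 lay within 2-fold. Over all 11794 genes past the filter, 7.75% differed by 2-fold or more, 5.69% upward and 2.06% downward (671 and 243 genes, or 529 and 402 when both arrays were scaled to the same median), so a count of 1 gene each way among 34 (2.94%) is near the background. That reading depends on the scaling, since with both arrays at the same median 4 of the 34 were lower (11.8%, against 3.41% of all genes). The median log2 difference of the 34 genes was -0.0031, against 0.05 for all genes. Of the 34, 17 read higher and 17 lower, while of all 11794 genes 6556 read higher and 5236 lower. Counts by direction below are to be read beside that share. At 1.5-fold, 6 of the 34 were lower (17.6%, against 7.06% of all genes) and 3 were higher (8.82%, against 11.8%). Of the 62 probe sets past the filter, 2 were at least 2-fold higher, 1 of Epas1 and 1 of Ldhb, and 2 were lower, both of Egln3. Of all named probe sets past the filter 7.72% differed by that much, 5.59% upward and 2.12% downward. Fewer cells of a type and less RNA per cell cannot be told apart in such bulk samples.

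**Figure D1:**
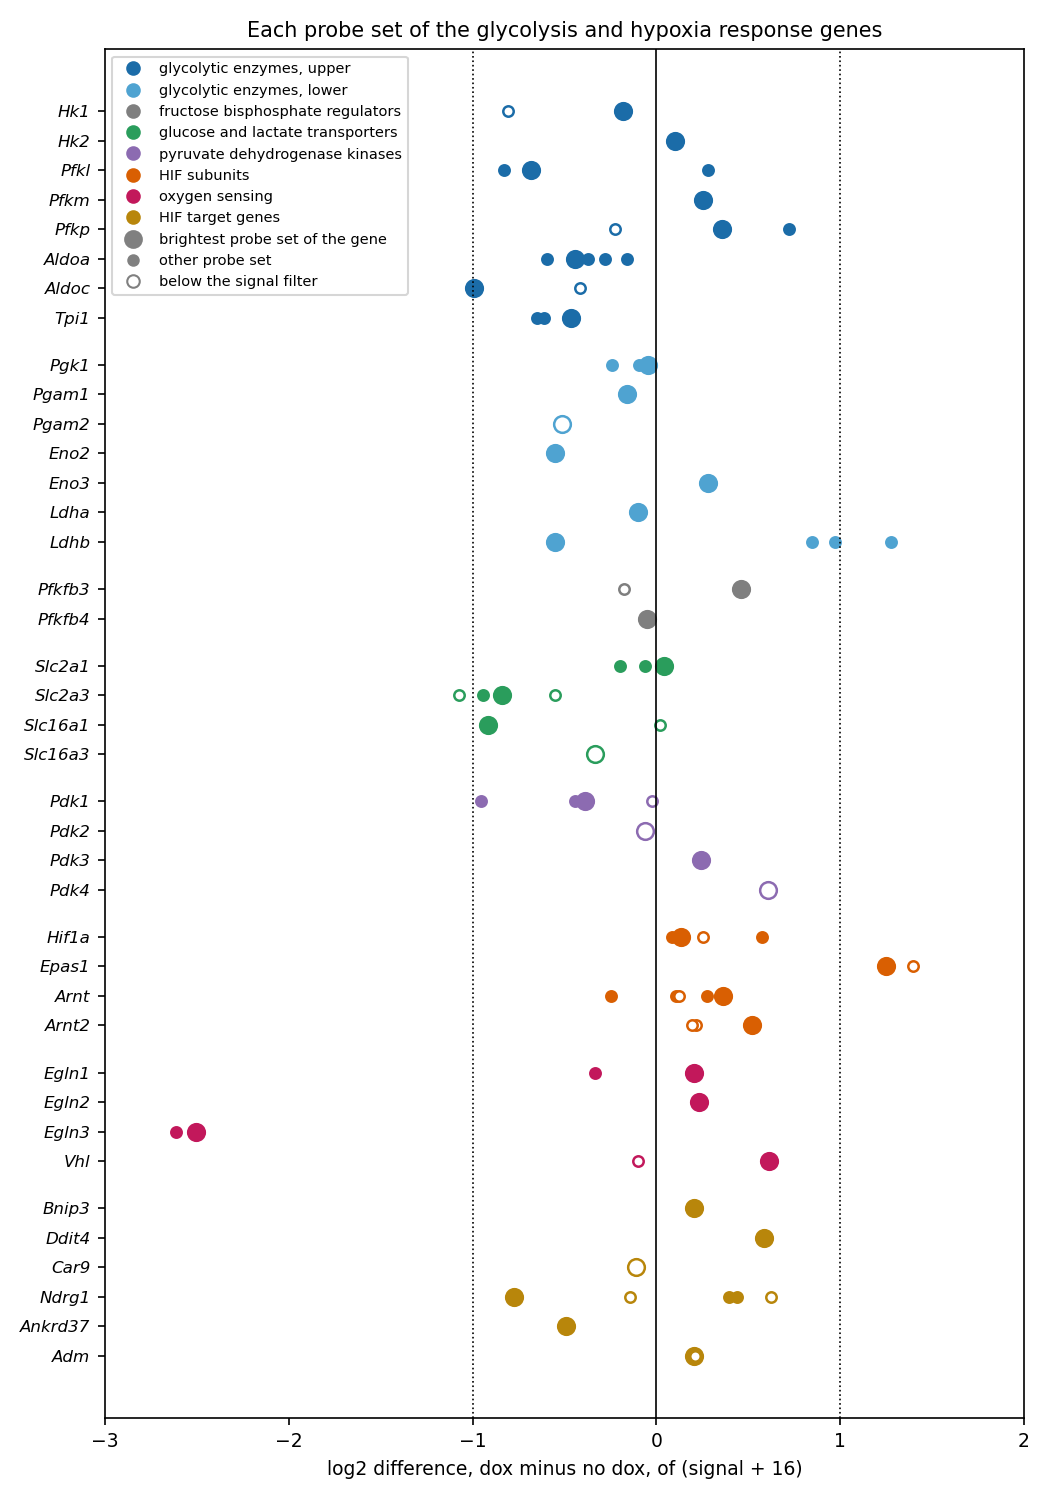
Log2 difference (dox minus no dox, horizontal axis) of every probe set of the 39 measured genes, grouped by role; large points are the brightest probe set of a gene, small points its other probe sets, open points those below the signal filter, and dotted lines mark 2-fold. Both probe sets of Egln3 lie below -2.5, both of Epas1 above 1, and the 4 probe sets of Ldhb fall on either side of 0.

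Among the oxygen sensors, the difference was large for Egln3 and small for its relatives. Egln3 (PHD3) is the prolyl hydroxylase best known as a strongly hypoxia-inducible HIF target. Its brightest probe set had a signal of 729.9 with dox and 4221 without, a log2 difference of -2.51. The other probe set read 429.9 with dox and 2715 without, a log2 difference of -2.61. They differ by far less than the 0.38 pooled SD, and the difference of Egln3 was number 17 from the lowest among all 11794 genes. Egln1 (PHD2), the main oxygen sensor in most cells, had a signal of 3818 with dox and 3305 without, and its other probe set read 684 and 866. Its probe sets thus pointed in opposite directions by 0.21 and -0.33. Egln2 (PHD1) read 3289 with dox and 2801 without, a log2 difference of 0.23. Vhl, the substrate receptor of the ubiquitin ligase that removes hydroxylated HIF alpha, read 1601 with dox and 1039.8 without, a log2 difference of 0.61, while its dim probe set, below the filter, differed by -0.10. Each of the 3 other sensor genes stayed within 2-fold.

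Egln3, Slc16a1 and Pdk1, all linked to hypoxia, were lower with dox while Bnip3 and Ddit4 were not. For these 5 genes, picked by these values, the 250 bases before the start are shown, 5′ to 3′ on the gene's own strand. The sequences are those of RefSeq on GRCm38.p6. Capitals mark the core of the hypoxia response element, searched as ACGTG and GCGTG on both strands, so that a match on the opposite strand reads CACGT or CACGC. The windows are chr12:54203875-54204124 (minus strand) for Egln3, chr3:104638414-104638663 (plus strand) for Slc16a1, chr2:71872974-71873223 (plus strand) for Pdk1, chr7:138909507-138909756 (minus strand) for Bnip3 and chr10:59951771-59952020 (minus strand) for Ddit4.
Egln3: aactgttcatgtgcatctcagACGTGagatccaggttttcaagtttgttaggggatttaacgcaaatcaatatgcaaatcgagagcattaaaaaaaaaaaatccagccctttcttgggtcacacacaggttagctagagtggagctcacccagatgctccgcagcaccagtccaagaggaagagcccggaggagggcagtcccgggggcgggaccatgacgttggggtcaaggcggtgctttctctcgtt
Slc16a1: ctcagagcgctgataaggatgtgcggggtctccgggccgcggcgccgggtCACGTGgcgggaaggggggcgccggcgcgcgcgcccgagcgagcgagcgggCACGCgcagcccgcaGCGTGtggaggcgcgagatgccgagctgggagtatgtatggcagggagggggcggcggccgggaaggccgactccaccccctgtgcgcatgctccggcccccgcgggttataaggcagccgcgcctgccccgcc
Pdk1: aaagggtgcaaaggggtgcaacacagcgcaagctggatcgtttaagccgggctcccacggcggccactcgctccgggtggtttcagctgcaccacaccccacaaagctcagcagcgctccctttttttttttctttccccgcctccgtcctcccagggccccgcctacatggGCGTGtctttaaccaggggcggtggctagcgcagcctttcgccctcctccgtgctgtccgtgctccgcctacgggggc
Bnip3: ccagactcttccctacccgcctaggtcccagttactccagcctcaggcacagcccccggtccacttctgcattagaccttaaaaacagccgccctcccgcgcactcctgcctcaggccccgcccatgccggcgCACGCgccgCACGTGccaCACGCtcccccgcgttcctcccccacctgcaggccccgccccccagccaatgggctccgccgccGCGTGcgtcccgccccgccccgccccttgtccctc
Ddit4: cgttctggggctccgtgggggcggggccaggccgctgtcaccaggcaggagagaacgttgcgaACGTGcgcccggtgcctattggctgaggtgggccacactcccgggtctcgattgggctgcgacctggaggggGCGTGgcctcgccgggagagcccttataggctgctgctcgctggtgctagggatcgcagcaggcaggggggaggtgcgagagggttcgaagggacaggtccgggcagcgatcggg
Egln3 had 1 match, starting 229 bases before the start site. Slc16a1 had 4 and Bnip3 had 5, and in both a pair of matches overlaps in CACGTG, which is also the E-box that basic helix-loop-helix factors such as Myc bind. Pdk1 had 1 match in this window and none in the window of a second annotated start, and Ddit4 had 2. Of the listed HIF targets not shown, Ankrd37 (-0.49) had 4 matches, Adm (0.20) had 2 and Car9, below the filter, had 1. Of the 39 listed genes with a promoter in the RefSeq table, 33 (84.6%) had at least 1 match in at least 1 window, as did 41.5% of all genes in the table. Counted by window, 38.6% of all 32851 windows of this length held a match. Among genes past the signal filter the shares were 87.1% of 31 members and 61.0% of 9534 genes. The 27 members with a match had a median log2 difference of 0.04, and the 4 without had 0.03. A match describes the letters in the window and does not show binding. Promoters of Epas1, Slc2a3 and Ndrg1 were not analysed here.

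All 4 HIF subunits read higher with dox by their brightest probe sets (Hif1a lower when both arrays were scaled to the same median), but Epas1 alone reached 2-fold. Epas1 encodes HIF-2α, the alpha subunit for which endothelium is known. Its signal was 8677 with dox and 3641 without, a log2 difference of 1.25, and its second probe set, below the filter on both arrays, read 113 and 32.9, a log2 difference of 1.40. The brighter probe set was number 482 from the highest among all genes. Hif1a, the widely expressed alpha subunit, read 9511 with dox and 8668 without (0.13), with 2681 against 2527 and 2431 against 1625 by its other probe sets past the filter. Those 3 differences ran between 0.08 and 0.58, and that of the brightest was -0.05 on arrays scaled to the same median. Arnt, the beta subunit HIF-1β, read 1132 with dox and 877 without (0.36), and its 4 probe sets past the filter ranged over -0.25 to 0.36. Arnt2, a relative of Arnt best known in neurons, read 146 with dox and 96.7 without (0.52). It passed the filter only through the array with dox. In the same pair of arrays the endothelial marker Eng read 3922 with dox and 1626 without (1.26), and mesenchyme and cardiomyocyte markers were higher as given above. Eng was not typical of its list. Of the 10 endothelial markers 3 read higher and 7 lower with dox, with a median of -0.06. The part of any of these cells in the value of Epas1 was not tested.

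The listed HIF targets did not move as a group. Of 5 past the filter, 3 read higher and 2 lower with dox, all within 2-fold, with a median log2 difference of 0.20 against 0.05 for all genes. Ddit4 (REDD1), a stress-induced inhibitor of mTORC1, had a signal of 4275 with dox and 2841 without, a log2 difference of 0.59. Bnip3, a mitochondrial protein that directs mitophagy in hypoxia, read 3125 with dox and 2710.2 without (0.20). Adm, the precursor of the vasodilator peptide adrenomedullin, read 217 with dox and 186 without (0.20). Both of its probe sets differed by nearly the same amount, although the dimmer one was below the filter. Ankrd37 read 194 with dox and 280.0 without (-0.49). Ndrg1, a stress-responsive protein induced by hypoxia, read 4545 with dox and 7792 without by its brightest probe set (-0.78), yet 389.6 against 292 and 231 against 167 by the next ones (0.40 and 0.44). The direction for Ndrg1 therefore rests on the choice of probe set. Car9, a surface carbonic anhydrase that is a sensitive hypoxia marker, stayed below the filter on both arrays, at 53.9 with dox and 59.4 without.

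**Figure D2:**
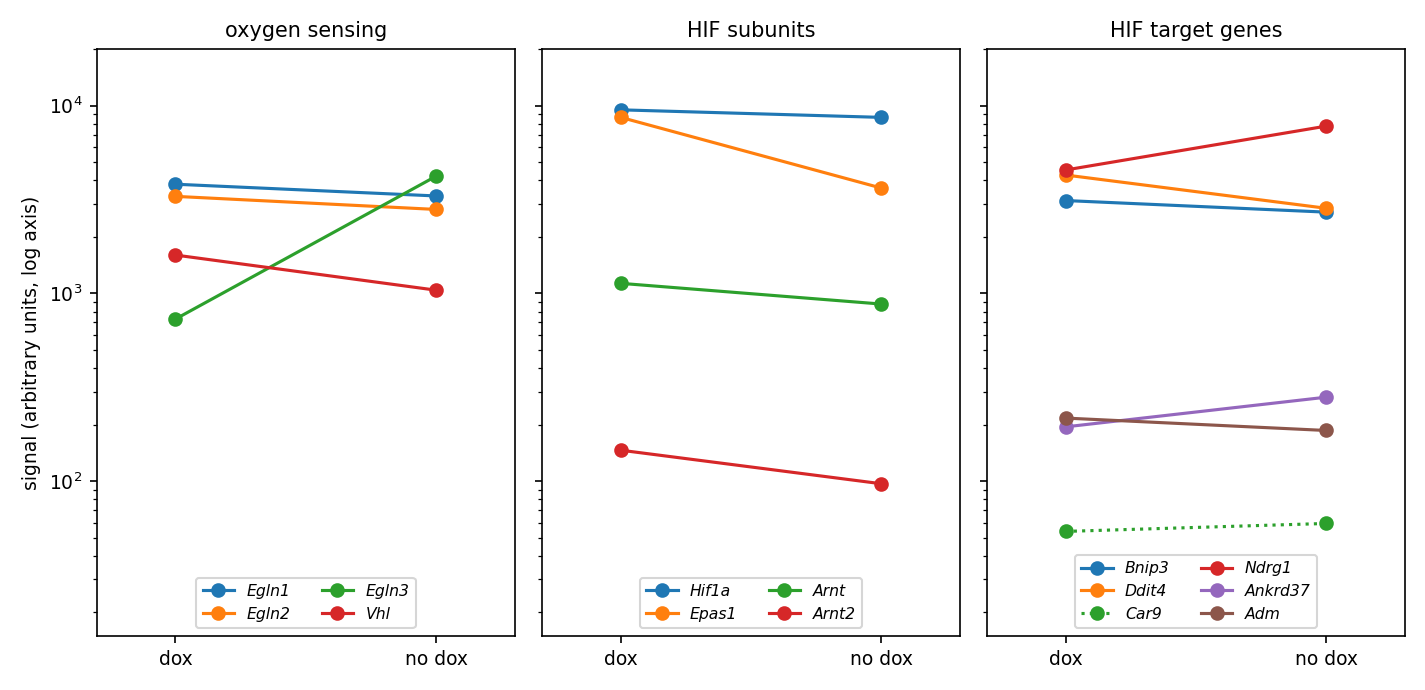
Signal of the brightest probe set (arbitrary units, log axis) on the dox and the no dox array, 1 line per gene, for the oxygen sensors, the HIF subunits and the listed HIF targets; the dotted line is Car9, below the signal filter. The line of Egln3 lies at 729.9 with dox and 4221 without, that of Epas1 at 8677 and 3641, and heights of different genes are not comparable.

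Other HIF targets also differed in both directions, 17 higher and 8 lower, where 6556 of all 11794 genes read higher and 5236 lower. Of 35 further targets listed from general knowledge, 25 passed the filter, 3 of them at least 2-fold higher with dox and none 2-fold lower, against 5.69% and 2.06% of all genes. These counts use the brightest probe sets, and for Stc2, a secreted glycoprotein, the choice mattered. Its brightest probe set read 590.4 with dox and 563 without (0.07), while the others read 67.3 against 634 and 34.6 against 144 (-2.96 and -1.66). The median log2 difference of the 25 was 0.20, against 0.05 for all genes. P4ha2, a subunit of collagen prolyl 4-hydroxylase, read 2838 with dox and 825 without, 3.39-fold higher. Plod2, a collagen lysyl hydroxylase, read 946 with dox and 429.6 without, 2.16-fold higher, and 496 against 295 by its other probe set. Their relatives P4ha1 and Plod1 stayed within 2-fold, at 0.57 and 0.77. Anxa2, a calcium-dependent membrane-binding protein, read 6152 with dox and 1723 without, 3.55-fold higher. The smooth muscle and mesenchyme markers, collagens among them, were higher in the same sample. Vegfa, the growth factor that Flk1 binds, read 1532 with dox and 2326 without (-0.60), and 849.5 against 748 by its second probe set (0.18). Among 10 further regulators of the pathway past the filter none differed 2-fold. Hif1an, the asparagine hydroxylase that blocks coactivator binding to HIF alpha, had the largest difference among these regulators, at 2512 with dox and 4299.6 without (-0.77), but 0.18 by another probe set. Stc2, Vegfa, P4ha1, Plod1 and Hif1an were named after their values were seen.

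Glucose and lactate carriers included some of the larger downward differences among the listed genes. Slc2a3 encodes GLUT3, a high-affinity glucose transporter of neurons and early embryonic cells. Its signal was 6469 with dox and 11580.5 without (-0.84), and its next probe set read 4448 and 8552 (-0.94). A further pair of probe sets below the filter differed by -1.08 and -0.55. All 4 probe sets were thus lower with dox. The 2 past the filter are both of the class marked by the array's maker as able to cross-hybridise. Slc16a1 (MCT1), a proton-coupled carrier of lactate and pyruvate, read 1950.3 with dox and 3689 without (-0.91). Its other probe set was dim and level, at 32.2 and 31.6. Slc2a1 (GLUT1), the main glucose transporter of endothelium, read 10374 with dox and 10084 without (0.04), and its 3 probe sets ranged over -0.20 to 0.04. Slc16a3 (MCT4), the lactate exporter of glycolytic cells, stayed below the filter at 76.3 with dox and 100.4 without. With both arrays scaled to the same median, Slc2a3 and Slc16a1 passed 2-fold, at -1.02 and -1.10. None of 4 other carriers past the filter differed 2-fold, and among them Bsg (basigin), the chaperone of MCT1 and MCT4, read 1841 with dox and 1542 without (0.25). Bsg was named after its value was seen.

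The glycolytic enzymes leaned slightly lower with dox. Of 14 past the filter, 10 read lower and 4 higher by their brightest probe sets, none by 2-fold, and 10 also lay below the median of all genes. The 10 include Ldhb, whose probe sets contradict each other, and without it the count was 9 lower of 13. Without probe sets that can cross-hybridise the count was 8 lower of 13, since Aldoa then has no probe set left and Ldhb reads higher. The median log2 difference was -0.17 against 0.05 for all genes, less than the 0.38 pooled SD between probe sets of a gene. By position in the pathway the median was -0.31 for the 8 genes from hexokinase to triose phosphate isomerase and -0.13 for the 6 genes after them (-0.10 without Ldhb). These medians were -0.18 and -0.13 without probe sets that can cross-hybridise. The upper one changed with the loss of Aldoa, so the contrast between the parts rests on which genes and probe sets are counted. The 10 further glycolysis genes past the filter did not lean either way, with 5 higher and 5 lower and a median of 0.0090. Their range ran from Pkm, the pyruvate kinase that closes the pathway (8287 with dox and 11634 without, -0.49), to Pgm1, a phosphoglucomutase that links glycolysis to glycogen (1116 and 574, 0.94). Pkm and Pgm1 were named after their values were seen.

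Among the listed enzymes, some of the larger differences were in the upper part of the route, which spends ATP. Aldoc, the brain-type aldolase, had a signal of 249 with dox and 511 without, 1.99-fold lower (-0.99), just inside 2-fold. Aldoa, the aldolase of muscle and most embryonic cells, read 8377 with dox and 11394 without (-0.44), and its 5 probe sets were all lower, by -0.16 to -0.59. Tpi1, triose phosphate isomerase, read 8945 with dox and 12344 without (-0.46), with 7269 against 11124 and 6927 against 10871 by its other probe sets. Every probe set of Aldoa and Tpi1 was lower with dox. All 5 of Aldoa, and the brightest of Tpi1, are of the class that can cross-hybridise, so they may share signal. The neural markers Nes and Pax6 were lower in the same sample, at 478 and 234 with dox against 952 and 382 without. A further Pax6 probe set, below the filter, differed by 1.16. The other 4 neural markers were below the filter on both arrays, with Sox1 at -2.48, Tubb3 at 0.03, Map2 at -0.08 and Neurog2 at -0.21. The value of Sox1 comes from a signal at the floor of 1 with dox, and its other probe set differed by 1.49. The part of neural cells in the values of Aldoc, Eno2 and Slc2a3 was not tested.

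The 3 phosphofructokinase genes, whose subunits form the main regulated step, did not move together. Pfkl, the liver type, read 3185 with dox and 5119.7 without (-0.68), and 1851 against 3303 by its second probe set (-0.83), but a dimmer one read 259 and 210.5 (0.28). Pfkm, the muscle type, read 1357 with dox and 1133 without (0.26). Pfkp, the platelet type, read 605 with dox and 467 without (0.36), and 193 against 111 by a further probe set (0.72). Pfkl was thus lower by its bright probe sets while Pfkm and Pfkp were not, a split that remained under both other scalings. Hexokinases, which trap glucose as its phosphate, were close to level. Hk2, the inducible form, read 5316 with dox and 4951 without (0.10, or -0.08 with the arrays scaled to the same median), and Hk1 read 316 and 360.2 (-0.18). Pfkfb3 and Pfkfb4 make and remove fructose 2,6-bisphosphate, the activator of phosphofructokinase. Pfkfb3, the form that drives glycolysis in sprouting endothelium, read 583 with dox and 418 without (0.46), and Pfkfb4 read 549 and 569.5 (-0.05).

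The listed genes of the lower part of the pathway, which yields ATP, were close to level apart from Ldhb and Eno2. Pkm, which belongs to that part but to the further list, differed by -0.49, beside -0.44 for Aldoa and -0.46 for Tpi1. Gapdh and Eno1 were not analysed. Pgk1, phosphoglycerate kinase, read 15183 with dox and 15687 without (-0.05), and its 3 probe sets ranged over -0.24 to -0.05. Pgam1, the main phosphoglycerate mutase, read 9627 with dox and 10773 without (-0.16), and the muscle form Pgam2 was near the bottom of the scale, at 4.19 and 12.9. Eno2, the neuronal enolase, read 153 with dox and 232 without (-0.55), while Eno3, the muscle enolase, read 716 and 585 (0.28). Ldha, the lactate dehydrogenase subunit that favours lactate formation, read 13278 with dox and 14241 without (-0.10).

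Ldhb, the heart-type subunit of lactate dehydrogenase, had probe sets that contradicted each other. The brightest read 1956 with dox and 2877 without, a log2 difference of -0.55. The next 3 all read higher with dox, at 1716 against 947, 1634 against 825 and 1631 against 663, with log2 differences of 0.85, 0.97 and 1.28. The brightest probe set belongs to the class marked by the array's maker as able to cross-hybridise, as does another of the 4. Averaged over all 4, the log2 difference was 0.64, and the brightest without that class gave 0.85, so no direction is given for Ldhb. Its SD between probe sets, 0.81, was the largest among the 14 genes with several probe sets past the filter, of which 8 had all of them in the same direction.

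Pyruvate dehydrogenase kinases shut the entry of pyruvate into the citric acid cycle, and Pdk1 is a classic HIF target. Pdk1 had signals of 9556 with dox and 12526 without (-0.39), 3967 against 7707 (-0.96) and 2891 against 3942 (-0.45). All 3 probe sets past the filter were lower with dox. Pdk3 read 616 with dox and 519 without (0.24). Pdk2 and Pdk4 stayed below the filter, at 19.8 and 100.2 with dox and 21.3 and 60.3 without. The 7 genes of the pyruvate dehydrogenase complex and its phosphatases, the machinery these kinases act on, all lay within -0.29 and 0.13. Of these 6 were lower and 1 higher, with a median of -0.13 against 0.05 for all genes. When both arrays were scaled to the same median, the median of all genes past the filter shifted by -0.18, and 11 of the 14 glycolytic enzymes then read lower. Of the 13 HIF pathway genes and targets past the filter 9 then read higher, with a median of 0.03, against 10 and a median of 0.21 on the arrays as deposited. Set against the median of all genes, the counts were the same under both scales. That sameness tests nothing, because such scaling shifts every gene and the median by nearly the same amount. The 14 glycolytic enzymes had 10 below that median, and the 13 HIF genes had 10 above it.

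**Figure D3:**
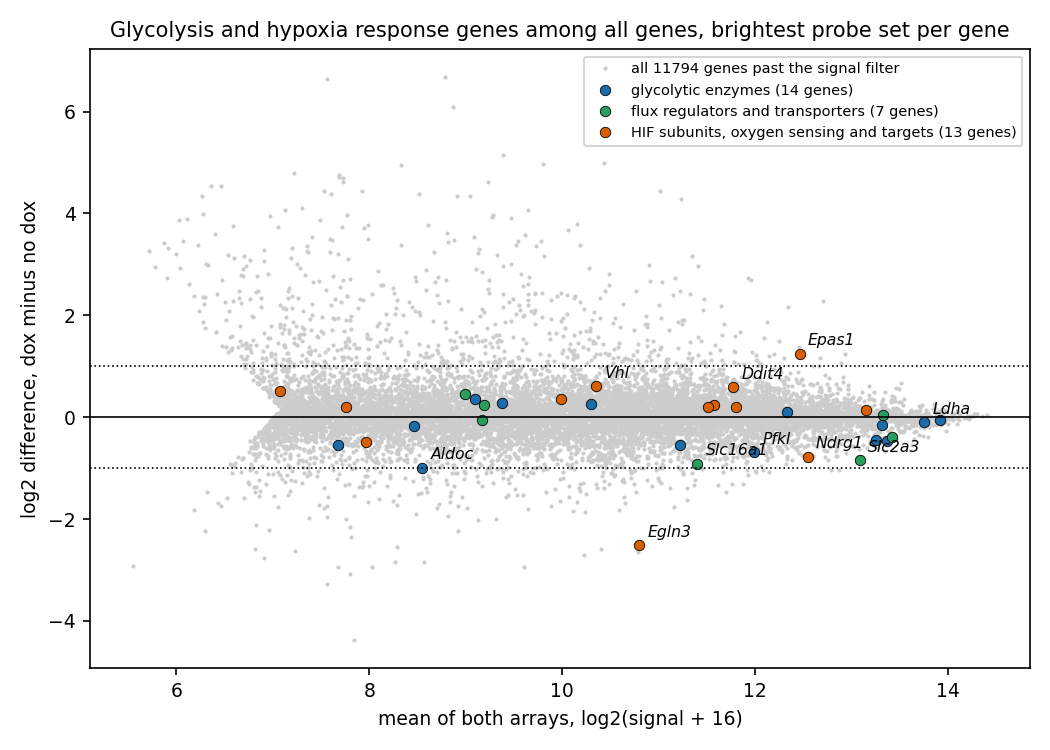
Log2 difference (dox minus no dox, vertical axis) against the mean log2(signal + 16) of both arrays (horizontal axis) for the brightest probe set of each of 11794 genes past the signal filter (grey) and the 34 glycolysis and hypoxia genes among them (coloured by role). All but Egln3 and Epas1 lie between the dotted lines at 2-fold.

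**Figure D4:**
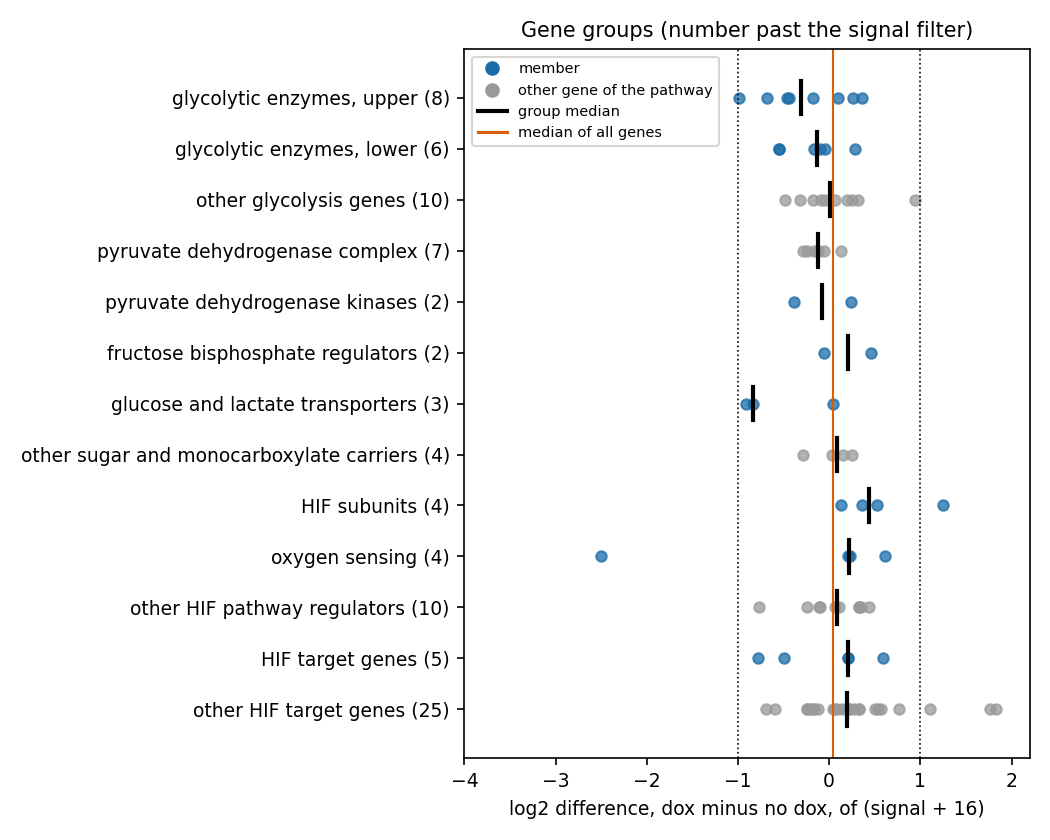
Log2 difference (dox minus no dox, horizontal axis) of each gene past the signal filter in the listed groups (blue) and in further groups of the same pathways (grey), with the group median as a black bar, the median of all genes (0.05) as an orange line and 2-fold as dotted lines; the number of genes stands beside each name. The medians run from -0.84 for the 3 glucose and lactate transporters to 0.44 for the 4 HIF subunits.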

How the data were processed

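RNA of 2 sorted cell samples, 1 per condition, was amplified (100 ng each) into biotin-labelled RNA and hybridised to Affymetrix 3' arrays, per the labels' protocols. The deposited table holds a linear signal intensity for 45037 probe sets, with a floor of 1 and no detection calls. How the authors summarised and scaled it is not stated in any source used here. Signals were named through the platform annotation (34945 probe sets with 1 symbol, 932 with several left unnamed, 9160 with none). Entrez numbers of all 39 measured genes matched RefSeq GRCm38.p6. Values were analysed as log2(signal + 16), 1 brightest probe set per gene, with Python 3.11.15, pandas 2.3.3 and numpy 2.4.6, and the steps were tested on simulated data. With 1 array per condition there is no test, and called means 2-fold or more past the signal filter. The number of arrays limits the precision. All listed genes are named; of each further pathway list, the genes past 2-fold; of each marker list, the 3 with the largest differences. The genes, lists and alternatives were chosen with earlier results of these data known.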

Additional observations from a re-analysis of the deposited data

How the results depend on the processing

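Egln3 (-2.69 to -2.43) and Epas1 (1.07 to 1.32) kept their direction and stayed past 2-fold under every alternative tried for them, in pseudocount, scaling, filter or choice of probe set. The lower side gained genes under some settings. The genes at least 2-fold lower were 2 with a pseudocount of 1 and 2 after quantile normalization, where Aldoc was added in each case (-1.03 and -1.12), and 4 with both arrays scaled to the same median, where Aldoc (-1.16), Slc16a1 and Slc2a3 were added and lower probe sets came to 8. At a fold of 1.5 there were 3 higher and 6 lower genes, and 7 higher and 13 lower probe sets. The median of the glucose and lactate transporters was -0.45 with the mean of all probe sets and -0.44 without probe sets that can cross-hybridise, against -0.84 as reported. The value of -0.44 covers Slc2a1 and Slc16a1 only, because Slc2a3 (-1.08 in that setting) then fell below the filter. A value was taken to have moved when it changed by more than the pooled SD of 0.38 between probe sets. This happened in 6 of 233 values of single genes and 2 of 125 medians. That bar is wide, since scaling to the same median shifted the median of all genes by only -0.18. A small difference can change sign without counting as moved, so these counts do not measure how firm the small differences are. Leaving out Ldhb, an alternative chosen after seeing the data, gave -0.10 for the lower glycolytic enzymes. The sign changed in 8 of the 233 values of single genes and 10 of the 125 medians. For single genes these were Hif1a, Hk2, Slc2a1 and Egln1, all near 0, and Ldhb (-0.55, against 0.64 with the mean of all probe sets and 0.85 without those that can cross-hybridise) and Ndrg1 (-0.78, against 0.11 with the mean of all probe sets). The number of genes past the filter at 2-fold was 671 higher and 243 lower as reported, 529 and 402 after scaling to the same median, 350 and 135 with the filter at the 75th percentile, and 417 and 168 with the filter on both arrays. The causes were not tested. No paired analysis was possible because each condition has 1 array. Without detection calls, signals below the filter cannot be told from background.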
